A study of Mus musculus with 6 samples.

Results

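Axon guidance genes encode the cues that steer growing axons and the receptors that read them. The set examined here comprised the genes with a probeset annotated to a single gene whose symbol placed them among the semaphorins and plexins, the ephrins and Eph receptors, the Slits and Robo receptors, or the netrins with Dcc and the Unc5 receptors, and the choice used symbols only. It held 69 genes of 19938 named on the array, carried by 75 probesets, and where a gene had several, the brightest on average was read. Of the 69, 67 belong to the guidance families. Unc50, a membrane protein of the Golgi and nuclear envelope, shares only the start of the symbol. Unc5cl is an intracellular relative of the Unc5 receptors and not a netrin receptor itself. Ephb2 and Ntng2, also of these families, were not analysed here.

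Whole-brain RNA came from 7-day-old male C57BL/6J pups, an inbred mouse strain. Ethanol pups received 20% ethanol in 0.15 M saline under the skin, as 2 doses of 2.5 g/kg given 2 h apart, and control pups received the 0.15 M saline alone. The dam was away from all pups during the injections. Brains were collected 4 h after the first injection, and each array held RNA pooled from 3 males of different litters, which leaves the spread between single pups unmeasured. There were 2 ethanol arrays, numbered 2 and 4, and 4 saline arrays, numbered 1, 3, 5 and 6, from 18 mice, and each ethanol pup had a littermate among the controls.

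Growth cones carry plexins, Eph receptors, Robos, Dcc and Unc5 proteins, which turn contact with a cue into local changes of the actin and microtubule skeleton. Most of these cues repel, and netrin-1 attracts through Dcc and repels through the Unc5 receptors. In the early postnatal brain, cortical and callosal axons are still growing and pruning, and many of the same molecules later act at synapses and in blood vessels.

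At 4 h, no axon guidance member passed the test between ethanol and saline brains. Levels are deposited log2 intensities, changes are log2 differences, ethanol minus saline, with the standard error (SE) of limma, a linear model with a spread estimate shared across genes, and a gene passed where its p, after Benjamini-Hochberg adjustment across the 14954 genes tested, was under 0.05. Of the 69 members, 64 were tested, and 0 passed in limma, where 12 of all tested genes (0.0802%) passed. The smallest adjusted p of a member was 0.266, for Sema3g. The count was also 0 under each of the other filters, scalings, probeset rules and limma settings tried and with any 1 array left out. Without adjustment, 4 members had a p under 0.05 in limma, 2 higher and 2 lower with ethanol. That is 6.25% of the members, against 12.3% of all tested genes, and by direction 3.12% of the members were higher, against 3.85% of all genes, and 3.12% were lower, against 8.45%. With arrays centred on their medians the split of these members was 5 higher (7.81%, against 5.65% of all genes) and 2 lower (3.12%, against 6.91%). After quantile normalization it was also 5 and 2, against 6.91% and 6.76% of all genes. With ethanol array 4 left out, the changes of Sema4f, Ephb1, Sema3g and Unc5b, the 4 members, were 0.20, 0.22, -0.19 and -0.11. With ethanol array 2 left out they were 0.32, 0.18, -0.29 and -0.17. Either way a single ethanol array is left, which widens the error and leaves the spread between ethanol pools unmeasured.

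The changes of the members were small in size. In 51 of 64, the change lay within 0.1 of zero on the log2 scale, and only Sema4f and Sema3g exceeded 0.2 in either direction. The median change of the 64 members was 0.01, against -0.02 for all tested genes. Of the members 36 were above zero and 28 below, and of all 14954 tested genes 6186 were above and 8768 below. After quantile normalization the members split 38 and 26, and all genes 7479 and 7475. Counts of signs in the families and lists below are to be read beside these splits. The 95% intervals, not adjusted for the number of genes, lay inside a 1.5-fold change in either direction for all 63 tested members with a mean above background, as gauged below. Among these, Slit3 had the lowest bound, a percent change of -19.7%, and Sema4f the highest, 39.1%. Sema3g was near background, where intensity may not follow the transcript. A whole-brain pool cannot tell fewer cells of a type from less RNA per cell.

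**Figure D1:**
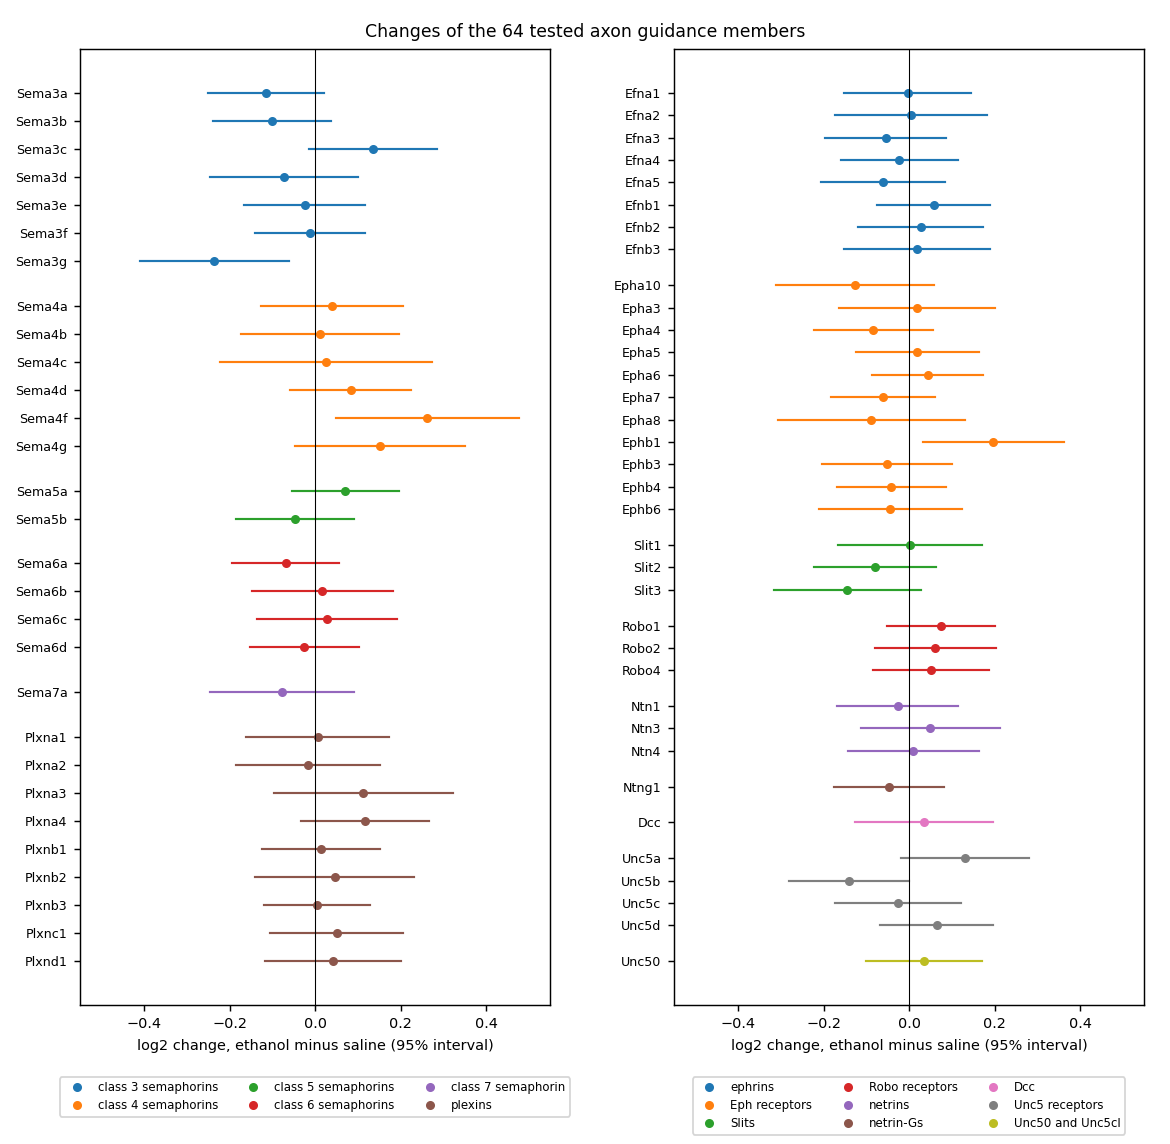
Log2 change, ethanol minus saline, of the 64 tested members, with 1 row per gene and colour by family. Points are limma estimates from 2 ethanol and 4 saline arrays and lines are 95% intervals without adjustment for the number of genes. The intervals of Sema4f and Ephb1 lie above zero, those of Sema3g and Unc5b below it, and all others include zero.

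The arrays carried the RNA of brain. The 8 neuronal markers had mean levels of 10.67 to 13.63, and 7 liver genes lay between 5.09 and 6.43. Receptor genes of the nose, olfactory and vomeronasal, served to gauge background: 95% of the 1194 were at or under 6.21, and Sema3g was the 1 tested member with a mean below it. Saline array 3 was far from the rest: its score on the main principal component (40.9% of variance) was 13.47, and the other scores ran from -7.49 to 2.95. None of 15 cell type marker lists held a gene that passed. Of 8 pituitary markers 5 were tested, all 5 below zero and 4 lower at an unadjusted p under 0.05, as were 8.45% of all genes. These 5 averaged 6.596 and 5.96 on the ethanol arrays, against 6.79 to 6.95 on the saline arrays. The hormone gene Gh measured 7.65 and 5.72 on the ethanol arrays, against 8.39, 7.70, 8.20 and 8.52 on the saline arrays, a change of -1.52 ± 0.38 (limma adjusted p = 0.162). Cga, a shared hormone subunit, measured 7.19 and 6.06 on the ethanol arrays, against 7.89, 7.66, 7.84 and 7.93 on the saline arrays, a change of -1.20 ± 0.21 (limma adjusted p = 0.0631). Both were lowest on ethanol array 4, and Lhb had a change of -0.02 ± 0.09 (limma adjusted p = 0.948). Pituitary Prl, Pomc and Tshb were too dim to be tested, and the part of pituitary tissue in the results below was not tested.

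Saline array 3 also bore on the members as a group. It was the lowest of the 6 arrays for 42 of 64 members (65.6%), against 36.9% of all tested genes, and for 56 of 91 tested partner genes of the same pathways (61.5%). The median member lay 0.10 below its saline mean on that array, where the median tested gene lay 0.04 below. On ethanol arrays 2 and 4 the median member lay at 0.01 and -0.015, against 0.03, 0.03 and 0.04 on saline arrays 1, 5 and 6. Centring the arrays left saline array 3 lowest for 21 members (32.8%), against 18.0% of all genes. Without saline array 3, the median change of the members was -0.04, against -0.03 for all tested genes. Of the members 20 were then above zero and 44 below, and of all genes 5126 and 9828. Without ethanol array 2 the members' median was -0.015, against -0.014 for all genes. Then 26 members were above zero and 38 below, and of all genes 6657 and 8297. The members' median thus changed sign with the loss of either of these arrays.

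**Figure D2:**
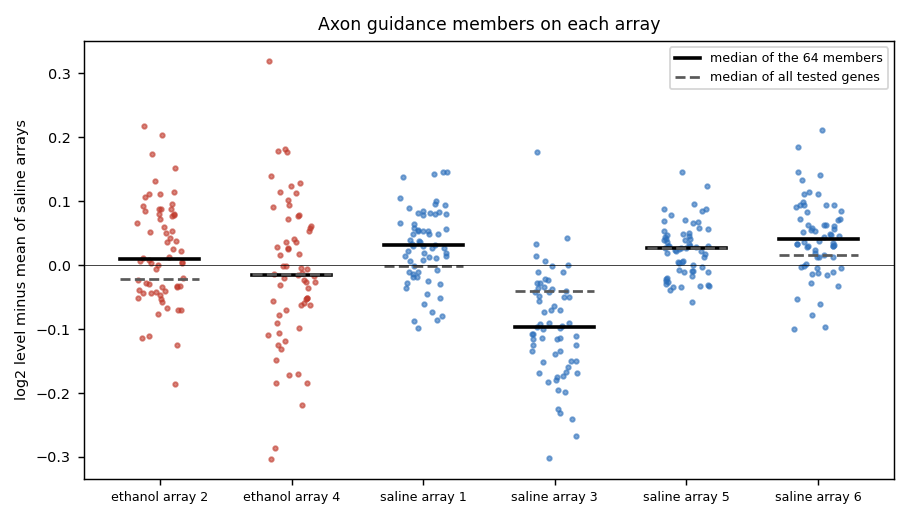
Log2 level of each of the 64 tested members on each array, minus the gene's mean over the 4 saline arrays, with ethanol arrays left of saline arrays. Solid bars are the median of the members and dashed bars that of all tested genes. Members on saline array 3 centre at -0.10, and those on the other arrays between -0.015 and 0.04.

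In 11 of 64 members (17.2%), the groups did not overlap, with both ethanol values outside the saline range, as in 22.6% of all tested genes. The 6 members that were higher on both were Sema3c, Sema5a, Plxna4, Ephb1, Robo1 and Unc5a, or 9.38%, against 7.68% of all genes. The 5 that were lower were Sema3a, Sema3g, Sema6a, Epha7 and Unc5b, or 7.81%, against 15.0% of all genes. With arrays centred on their medians the split was 12 higher (18.8%, against 10.7% of all genes) and 7 lower (10.9%, against 13.1%). After quantile normalization it was 11 higher (17.2%, against 12.1%) and 8 lower (12.5%, against 12.2%). Without saline array 3 it was 6 higher (9.38%, against 8.12%) and 18 lower (28.1%, against 23.8%). Without ethanol array 4 it was 17 higher (26.6%, against 17.2%) and 8 lower (12.5%, against 29.2%).

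**Figure D3:**
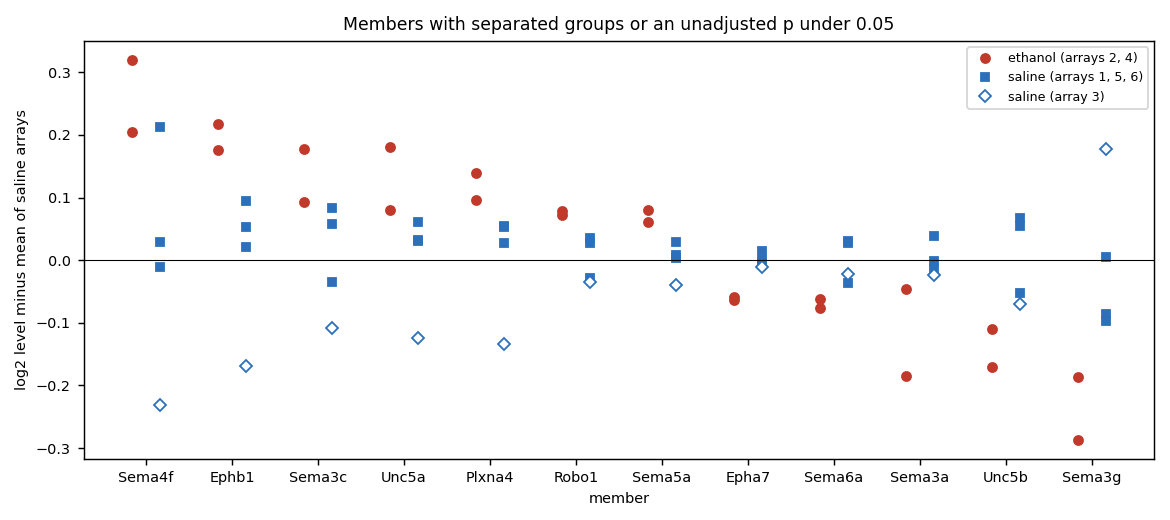
Log2 level minus the gene's saline mean for the 11 members whose groups did not overlap and for Sema4f, with 1 point per array. Ethanol arrays stand left of saline arrays for each gene, and the open diamond is saline array 3. In Sema4f, Ephb1, Sema3c, Sema5a, Plxna4, Robo1 and Unc5a, saline array 3 is the lowest point, and in Sema3g it is the highest.

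Semaphorins are secreted or membrane-bound cues, of which class 3 acts through neuropilins paired with plexins. All 20 semaphorin genes were tested, 10 were above zero and 10 below, and 1 in each direction had an unadjusted p under 0.05. In class 3, 6 of 7 genes were below zero, with a median of -0.07, and without ethanol array 4 it was 4 of 7. Sema3g, a class 3 cue made by arterial endothelium, measured 5.89 and 5.79 on the ethanol arrays, against 5.99, 6.25, 6.08 and 5.98 on the saline arrays. Both ethanol values lay below all saline values, and all 6 values were close to background. The change of Sema3g was -0.24 ± 0.08 (SE, interval -0.41 to -0.06, unadjusted p = 0.0122, limma adjusted p = 0.266). Among 8 tested endothelial markers, 3 were above zero and 5 below, with a median of -0.02, and their mean level was 8.17 and 8.21 on the ethanol arrays, against 8.13 to 8.22 on the saline arrays. The 8 pericyte and smooth muscle markers were all below zero, as were 8768 of all 14954 tested genes, and their median was -0.11. Their mean level was 7.68 and 7.63 on the ethanol arrays, against 7.72 to 7.79 on the saline arrays. Their part in the value of Sema3g was not tested.

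Sema3a, which collapses growth cones through neuropilin-1 and A-type plexins, measured 9.24 and 9.10 on the ethanol arrays, against 9.27, 9.26, 9.33 and 9.28 on the saline arrays. The groups did not overlap, but ethanol array 2 was close to the saline values and array 4 was the lower. Its change was -0.12 ± 0.06 (limma adjusted p = 0.489), and without ethanol array 4 it was -0.05. Sema3c, a cue for cortical and vascular cells, measured 8.44 and 8.52 on the ethanol arrays, against 8.40, 8.24, 8.31 and 8.43 on the saline arrays. It was the 1 class 3 gene above zero, at 0.14 ± 0.07 (limma adjusted p = 0.455), with no overlap and the lowest value on saline array 3. The co-receptor genes of this class overlapped between groups, with Nrp1 at -0.03 ± 0.06 and Nrp2 at 0.01 ± 0.07 (limma adjusted p = 0.909 and 0.977).

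Class 4 semaphorins are transmembrane proteins, and all 6 were above zero, with a median of 0.06. Each of the 6 had its lowest value on saline array 3, and without that array 4 were above zero and 2 below, while without ethanol array 4 it was 3 and 3. Sema4f, which binds the postsynaptic scaffold PSD-95, measured 8.82 and 8.94 on the ethanol arrays, against 8.65, 8.39, 8.61 and 8.83 on the saline arrays. Both ethanol arrays were high, but the lower of them fell just short of saline array 6, so the groups overlapped. The change of Sema4f was the highest of the tested members, 0.26 ± 0.10 (SE, interval 0.05 to 0.48, unadjusted p = 0.0205, limma adjusted p = 0.308), a level 19.9% higher, and without saline array 3 it was 0.19. Sema4g, whose probeset was the brightest of the class, measured 9.14 and 9.10 on the ethanol arrays, against 9.11, 8.73, 9.04 and 9.01 on the saline arrays, a change of 0.15 ± 0.09 (limma adjusted p = 0.535). Its ethanol values fell on both sides of the highest saline value.

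Class 5, 6 and 7 cues are mostly membrane-bound, and none had an unadjusted p under 0.05 in limma. Sema5a, which carries thrombospondin repeats, measured 9.94 and 9.92 on the ethanol arrays, against 9.87, 9.82, 9.86 and 9.89 on the saline arrays. These groups did not overlap, and the change of Sema5a was 0.07 ± 0.06 (limma adjusted p = 0.653). Sema6a, a ligand of plexins A2 and A4, measured 11.61 and 11.63 on the ethanol arrays, against 11.65, 11.67, 11.72 and 11.72 on the saline arrays. Both ethanol values lay just below the saline values, with a change of -0.07 ± 0.06 (limma adjusted p = 0.665). Sema7a, a lipid-anchored ligand of plexin C1, measured 10.27 and 10.18 on the ethanol arrays, against 10.40, 10.13, 10.34 and 10.34 on the saline arrays, with overlap and a change of -0.08 ± 0.08 (limma adjusted p = 0.727).

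Plexins are the signalling receptors of the semaphorins, and their cytoplasmic part acts on small GTPases. None of the 9 tested plexins had an unadjusted p under 0.05. In the fit of all arrays 8 were above zero and 1 below, with a median of 0.04, and saline array 3 was the lowest array for 8 of the 9. Without that array 4 were above zero and 5 below, with a median of -0.01, and without ethanol array 2 there were 3 above and 6 below. Plxna4, which reads Sema3a and Sema6a, measured 10.89 and 10.93 on the ethanol arrays, against 10.85, 10.66, 10.82 and 10.85 on the saline arrays. It was the 1 plexin without overlap, with a change of 0.12 ± 0.07 (limma adjusted p = 0.522), 0.07 without saline array 3. Plxna1, which pairs with neuropilins for class 3 cues, measured 11.24 and 11.18 on the ethanol arrays, against 11.29, 11.03, 11.23 and 11.28 on the saline arrays, and its change was 0.01 ± 0.08 (limma adjusted p = 0.984, interval -0.16 to 0.17).

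Ephrins are membrane-bound ligands that signal through Eph receptor kinases at cell contacts. All 8 ephrin genes were tested, with 4 above zero and 4 below, changes from -0.06 to 0.06 and 0 with an unadjusted p under 0.05 or without overlap. Saline array 3 was the lowest for 6 of the 8, and without it 1 was above zero and 7 below. Efnb1, a transmembrane ephrin that can signal back into its own cell, measured 8.04 and 7.98 on the ethanol arrays, against 8.02, 7.90, 7.92 and 7.97 on the saline arrays. Its groups overlapped, and its change, with the smallest p of the family, was 0.06 ± 0.06 (limma adjusted p = 0.751). Efna3, a lipid-anchored ephrin, measured 10.46 and 10.43 on the ethanol arrays, against 10.51, 10.42, 10.46 and 10.59 on the saline arrays, a change of -0.06 ± 0.06 (limma adjusted p = 0.779).

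Of 13 Eph receptor genes, 11 were tested, 4 above zero and 7 below, with a median of -0.04, and without ethanol array 4 it was 7 and 4. Epha1 and Epha2 were too dim, at means of 5.37 and 5.43. Ephb1, which turns retinal axons away from the midline at the optic chiasm, measured 8.68 and 8.63 on the ethanol arrays, against 8.48, 8.29, 8.51 and 8.55 on the saline arrays. Both ethanol values were above all saline values, and saline array 3 was the lowest. Its change was 0.20 ± 0.08 (SE, interval 0.03 to 0.36, unadjusted p = 0.0227, limma adjusted p = 0.320), a level 14.7% higher. A second, dimmer Ephb1 probeset had a change of -0.12 ± 0.09. Its mean of 6.33 was close to the background limit of 6.21, where intensity may not follow the transcript. The mean of both probesets gave 0.04 with an adjusted p of 0.887 in limma. The 2 probesets of Ephb1 thus had changes of opposite sign, with the dimmer 1 limited by signal. Epha7, which mediates repulsion in cortical and retinal maps, measured 10.77 and 10.76 on the ethanol arrays, against 10.84, 10.82, 10.83 and 10.82 on the saline arrays. The saline values were close together and both ethanol values lay below them, with a change of -0.06 ± 0.06 (limma adjusted p = 0.705). The other EphB receptors analysed, Ephb3, Ephb4 and Ephb6, had changes between -0.05 and -0.04.

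Slits are secreted repellents that keep axons from crossing or re-crossing the midline through Robo receptors. None of the 6 tested genes of this pair of families had an unadjusted p under 0.05. Slit3, the lowest of the Slits in change, measured 8.48 and 8.33 on the ethanol arrays, against 8.70, 8.42, 8.56 and 8.54 on the saline arrays. One ethanol value lay within the saline range and the other below it, and the change was -0.14 ± 0.08 (limma adjusted p = 0.493). Slit1, a repellent that Robo1 and Robo2 both bind, measured 9.52 and 9.59 on the ethanol arrays, against 9.66, 9.39, 9.54 and 9.62 on the saline arrays, with a change of 0.00 ± 0.08 (limma adjusted p = 0.995). Robo1, a receptor of forebrain and spinal axons, measured 11.16 and 11.16 on the ethanol arrays, against 11.12, 11.05, 11.11 and 11.06 on the saline arrays. Both ethanol values stood above all saline values, for a change of 0.08 ± 0.06 (limma adjusted p = 0.631). Robo2 overlapped at 11.33 and 11.24 on the ethanol arrays, against 11.32, 11.23, 11.19 and 11.17 on the saline arrays, and its change was 0.06 ± 0.06 (limma adjusted p = 0.748). Robo3, which permits midline crossing, was too dim to be tested, with a mean of 5.50.

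Netrins, the netrin-Gs, Dcc and the Unc5 receptors gave 9 tested genes of 10, with 5 above zero and 4 below and a median of 0.01. Ntn1, the cue read by both Dcc and the Unc5 receptors, measured 7.42 and 7.43 on the ethanol arrays, against 7.47, 7.34, 7.51 and 7.48 on the saline arrays, a change of -0.03 ± 0.06 (limma adjusted p = 0.910). Ntn3 had a change of 0.05 ± 0.07 (limma adjusted p = 0.835) with overlap, and Ntn5 was too dim to be tested at 5.34. Ntng1, a lipid-anchored netrin relative that binds the Lrrc4c protein and not Dcc, measured 9.65 and 9.69 on the ethanol arrays, against 9.70, 9.68, 9.71 and 9.77 on the saline arrays, a change of -0.05 ± 0.06 (limma adjusted p = 0.795). A second, dimmer Ntng1 probeset, with a mean of 7.09, had a change of 0 ± 0.09. Dcc, the attractive netrin receptor, measured 10.41 and 10.33 on the ethanol arrays, against 10.28, 10.22, 10.46 and 10.39 on the saline arrays. Its groups overlapped, with a change of 0.04 ± 0.07 (limma adjusted p = 0.891).

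The Unc5 receptors, which turn netrin into a repellent, differed in sign among themselves. Unc5b, which is also found on endothelial cells, measured 7.79 and 7.72 on the ethanol arrays, against 7.84, 7.83, 7.96 and 7.95 on the saline arrays. Both ethanol values were below all saline values, and the change was -0.14 ± 0.06 (SE, interval -0.28 to -0.0004, unadjusted p = 0.0495, limma adjusted p = 0.405), a percent change of -9.31%. The unadjusted p of Unc5b was not under 0.05 with trend and robust limma or without ethanol array 2, ethanol array 4, saline array 5 or saline array 6. Unc5a measured 9.69 and 9.80 on the ethanol arrays, against 9.65, 9.49, 9.64 and 9.68 on the saline arrays. Both of its ethanol values were above all saline values, array 2 only narrowly, and the change was 0.13 ± 0.07 (limma adjusted p = 0.475), 0.09 without saline array 3. Unc5d measured 9.95 and 10.01 on the ethanol arrays, against 9.97, 9.86, 9.90 and 9.95 on the saline arrays, a change of 0.06 ± 0.06 (limma adjusted p = 0.710). A second Unc5d probeset, with a mean of 9.77, had a change of 0.01 ± 0.08. Unc50 had 0.04 ± 0.06 (limma adjusted p = 0.865). Unc5cl was dim, at 5.10.

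Promoters of the 4 members with an unadjusted p under 0.05 are shown because these genes had the members' lowest p-values, and those of Sema4c and Sema6b because they hold an AP-1 motif near the start. Each is the 100 bases before the RefSeq start of the gene in GRCm38.p6, 5′ to 3′ on the strand of the gene, with motif letters in capitals.
Sema3g (chr14:31217773-31217872, plus strand): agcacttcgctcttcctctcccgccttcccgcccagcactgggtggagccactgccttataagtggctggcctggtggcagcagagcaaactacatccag
Sema4f (chr6:82939770-82939869, minus strand): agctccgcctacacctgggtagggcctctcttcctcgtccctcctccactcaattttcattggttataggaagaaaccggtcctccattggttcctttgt
Ephb1 (chr9:102354694-102354793, minus strand): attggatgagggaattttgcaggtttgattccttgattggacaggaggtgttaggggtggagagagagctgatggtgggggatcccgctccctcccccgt
Unc5b (chr10:60831582-60831681, minus strand): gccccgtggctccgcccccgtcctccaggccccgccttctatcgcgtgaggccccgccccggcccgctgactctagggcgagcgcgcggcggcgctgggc
Sema4c (chr1:36558382-36558481, minus strand): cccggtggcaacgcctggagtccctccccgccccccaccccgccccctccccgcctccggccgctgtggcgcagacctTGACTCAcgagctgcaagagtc
Sema6b (chr17:56133853-56133952, minus strand): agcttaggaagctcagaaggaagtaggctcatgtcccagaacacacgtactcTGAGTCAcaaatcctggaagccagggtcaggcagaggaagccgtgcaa

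Jun, which encodes a subunit of AP-1, rose in the same brains, at 10.30 and 10.49 on the ethanol arrays, against 8.94, 8.96, 9.41 and 9.40 on the saline arrays, a change of 1.22 ± 0.13 (limma adjusted p = 0.00211). With that known, the 250 bases before the start were searched on both strands for the AP-1 letters TGANTCA, the cyclic AMP response element TGACGTCA and the E-box CACGTG, each of which reads the same on either strand and none of which contains another. RefSeq promoters were matched for 59 members. AP-1 letters were present in 3 of them (5.08%), against 7.82% of 27025 genes with a promoter, the E-box in 4 (6.78%, against 6.86%) and the cyclic AMP response element in 1 (1.69%, against 1.77%). The 3 members with AP-1 letters had changes of 0.02 ± 0.11 for Sema4c, 0.08 ± 0.07 for Sema4d and 0.02 ± 0.08 for Sema6b (limma adjusted p = 0.954, 0.636 and 0.953). A second Sema4d probeset, with a mean of 8.47, had a change of 0.03 ± 0.06. The motif letters are a description of the windows, and the windows of Sema3g, Sema4f, Ephb1 and Unc5b held none of the 3 motifs.

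Partner genes of the cues and receptors were listed as 96 symbols, for co-receptors, other ligands, adaptors and effectors. Of these, 1 was too dim and 4 were not analysed here, among them Grb4, another name of Nck2, which was tested. In limma, 91 partner genes were tested and 0 passed. Without adjustment, 7 had a p under 0.05, or 7.69%, against 12.3% of all tested genes. Of these, 2 were higher (2.20%, against 3.85%) and 5 lower (5.49%, against 8.45%). Centring the arrays gave 9 higher (9.89%, against 5.65% of all genes) and 5 lower (5.49%, against 6.91%). In the main fit 49 of the 91 were above zero and 42 below, with a median of 0.01. Of all tested genes 6186 were above zero and 8768 below. Among 23 tested Eph and ephrin partners, the adaptors Nck1 and Nck2, which link phosphorylated receptors to actin regulators, had opposite signs. Nck1 measured 8.88 and 8.95 on the ethanol arrays, against 9.15, 9.10, 9.17 and 9.08 on the saline arrays, and its change was -0.21 ± 0.06 (unadjusted p = 0.00467, limma adjusted p = 0.199). Nck2 measured 8.64 and 8.54 on the ethanol arrays, against 8.33, 8.37, 8.49 and 8.46 on the saline arrays, and its change was 0.18 ± 0.07 (unadjusted p = 0.0212, limma adjusted p = 0.312). Neither gene's groups overlapped.

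Of 29 tested semaphorin partners, Mical3, an actin-linked oxidoreductase, had a change of 0.19 ± 0.08 (limma adjusted p = 0.376), with 9.45 and 9.45 on the ethanol arrays, against 9.31, 9.05, 9.29 and 9.38 on the saline arrays. Rnd3, a GTPase that opposes RhoA, had -0.16 ± 0.06 (limma adjusted p = 0.336), with 9.29 and 9.15 on the ethanol arrays, against 9.33, 9.41, 9.43 and 9.36 on the saline arrays. Cd72, a Sema4d receptor of B cells, had -0.18 ± 0.06 (limma adjusted p = 0.298) at 5.52 to 5.77 over the 6 arrays, within background. All 3 were without overlap between groups. Of 15 Slit and Robo partners, Vasp, which promotes actin filament growth, had -0.15 ± 0.07 (limma adjusted p = 0.371), with 6.63 and 6.52 on the ethanol arrays, against 6.66, 6.78, 6.69 and 6.78 on the saline arrays. Of 24 netrin partners, Flrt2, a membrane ligand of Unc5d, had -0.17 ± 0.06 (limma adjusted p = 0.301), with 10.44 and 10.38 on the ethanol arrays, against 10.67, 10.51, 10.55 and 10.59 on the saline arrays. In both Vasp and Flrt2 the ethanol values lay below all saline values.

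**Figure D4:**
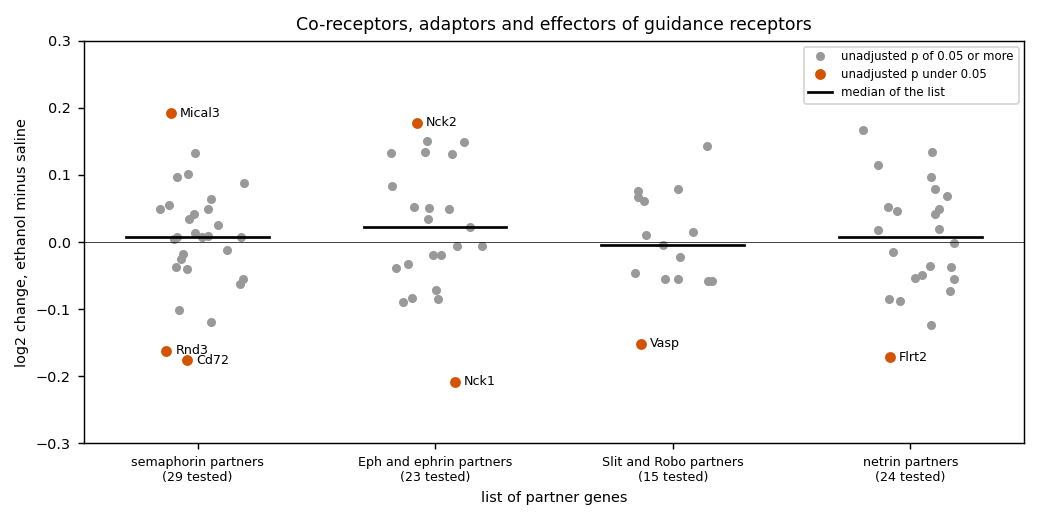
Log2 change, ethanol minus saline, of the tested partner genes in 4 lists, with 1 point per gene from 2 ethanol and 4 saline arrays and a bar at the list's median. Orange points, with an unadjusted limma p under 0.05, are Mical3 and Nck2 above zero and Rnd3, Cd72, Nck1, Vasp and Flrt2 below it, and the medians lie between -0.01 and 0.02.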

How the data were processed

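RNA was measured on an Affymetrix whole-transcript array. Values were deposited by the authors for each probeset of each array and are taken here as log2 intensities from their range of 4.10 to 14.86, since the base is not stated. The submitters' processing notes name Partek 6.6. How background, normalization and summarisation were handled is not given in the sources used here. No further scaling was applied, and another normalization could move changes of this size.

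Of 35556 probesets, the platform annotation named a single gene for 21789 and several for 1621, and 12146 are unnamed here, with 21698 of the single-gene ones matched to current RefSeq gene records. Genes were read from the probeset with the highest mean over the 6 arrays. The dimmest 25% of genes (4984, means up to 5.55) were left out. Each gene was fitted with limma 3.58.1 in R 4.3.3 (lmFit, eBayes, two-sided), with treatment as the only term, 4 residual and 8.10 prior degrees of freedom. The fit was tested on simulated data, but no result of that is given here, so it adds no support to the values above. Pools are separate animals, but ethanol pups had littermates among the controls, and the fit does not model litter. The p-values rest on each gene's spread between pools together with the spread shared across genes. The number of arrays limits the precision.

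The members and lists were chosen with earlier results of these data known, so counts are set beside those of all genes and no test of a list was made. Named are, by family, the member with the smallest p and the brightest, every member with an unadjusted p under 0.05 or without overlap between groups, dim members, known receptor partners of these, and partner genes with an unadjusted p under 0.05. Jun, the motifs, the genes that hold AP-1 letters and the other EphB receptors analysed were chosen after values were seen. Alternatives were other filters on dim genes, 2 other scalings, other probeset rules, limma with trend and robust settings, and leaving out each array. The netrin-G gene Ntng2 lay on a probeset of several genes.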

Additional observations from a re-analysis of the deposited data

Results flagged for a closer look

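Plxna4 had a value of 10.66 on saline array 3, against 10.82 to 10.85 on the other saline arrays, and Unc5a had 9.49 on the same array, against 9.645 to 9.68. In each, the gap to the nearest saline array exceeded the 95% limit of Dixon's test for 4 values. Saline values of 38 named genes were examined this way, and chance flags about 1 group in 20. Both genes were above all saline arrays on both ethanol arrays. The part of saline array 3 in their changes is given by the values without it, 0.07 for Plxna4 and 0.09 for Unc5a.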

How the results depend on the processing

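The counts of 0 passing members and 0 passing partner genes held under all alternatives run. No paired analysis was possible because the ethanol arrays (2 and 4) and saline arrays (1, 3, 5 and 6) share no number, and the labels do not tie littermates to arrays. Of the members with an unadjusted p under 0.05, the 2 higher ones became 5 with centred arrays and 5 after quantile normalization. With the mean of a gene's probesets they became 1 (1.56%, against 3.81% of all genes). The 2 lower ones became 1 when 50% of genes were left out as dim (1.89%, against 7.47% of all genes), where Sema3g was no longer tested. With trend and robust limma they became 1 (1.56%, against 8.35%), where Unc5b was lost. Leaving out 1 saline array gave 2 to 3 higher and 1 to 4 lower. The 3 higher came without saline array 1 or 6 (4.69%, against 3.62% and 4% of all genes). The 4 lower came without saline array 3 (6.25%, against 10.5%). Without saline array 5 or 6, 1 was lower (1.56%, against 5.71% and 6.81%). Members without overlap, 6 higher and 5 lower, became 12 higher with centred arrays, and 11 higher and 8 lower after quantile normalization. With 1 array left out they were 6 to 17 higher and 5 to 18 lower. Without saline array 1, 10 were higher (15.6%, against 9.83% of all genes) and 6 lower (9.38%, against 21.4%). Without saline array 6, 10 were higher (15.6%, against 10.8%) and 5 lower (7.81%, against 17%). Without saline array 3, 6 were higher (9.38%, against 8.12%) and 18 lower (28.1%, against 23.8%). Without ethanol array 2, 11 were higher (17.2%, against 20.2%) and 12 lower (18.8%, against 28.1%). Without ethanol array 4, 17 were higher (26.6%, against 17.2%) and 8 lower (12.5%, against 29.2%). With 1 ethanol array left, only 1 value has to lie outside the saline range, and both shares of all genes rose from 7.68% and 15.0%. The 7 partner genes with an unadjusted p under 0.05 became 14 with centred arrays (15.4%, against 12.6% of all genes). After quantile normalization they became 13 (14.3%, against 13.7%). With 1 saline array left out they were 4 to 9. The 4 came without saline array 5 (4.4%, against 9.6%) and the 9 without saline array 3 (9.89%, against 13.8%). The members' median change ranged from -0.04 to 0.02 with 1 array left out. Of the named genes' changes under alternatives, 476 kept their sign and 14 reversed, each with 1 array left out. These were of Dcc (-0.0059 to 0.0767 with 1 array left out), Nrp1 (-0.0615 to 0.0106), Nrp2 (-0.059 to 0.0739), Plxna1 (-0.0519 to 0.0383), Sema4c (-0.0758 to 0.1015), Sema6b (-0.044 to 0.0779) and Slit1 (-0.0533 to 0.037). The cause was not tested. Sema3g and Cd72, near background, are limited by signal.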
